A study of Mus musculus with 54 samples.

Results

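Socs2, Ubash3b and Cntln are 3 genes whose surroundings the study displayed as example loci or measured by RT-qPCR, and the 43 peaks of open chromatin at these genes were taken from a merged list of 113737 peaks. A peak was a member when its centre lay inside the gene body or no more than 100 kb from one of the gene's transcription start sites (TSSs) in GENCODE M21 on the mouse build GRCm38. Socs2 held 24 of the members, Cntln 12 and Ubash3b 7. The genes are here because the study showed or measured their loci, whereas the peaks around them were taken by position alone.

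The peaks came from ATAC-seq, in which the Tn5 transposase cuts and tags accessible DNA, in ZHBTc4 mouse embryonic stem cells grown in serum with LIF and the 2i inhibitors. In these cells doxycycline (dox) switches off Pou5f1, which encodes OCT4, and a PGK-driven mCherry-OCT4-AID fusion supplies OCT4 until indole-3-acetic acid (IAA, auxin) triggers its degradation through Tir1. All cells also carried the cell cycle reporter YPet-MD, and all 54 samples had received dox. A first set of 22 samples had 26 hr of dox with 500 nM IAA for 2 hr or without IAA, and was sorted by cell cycle phase into EG1 and LG1 (the early and the late part of G1), S, and a pooled gate of late S and G2 named SG2, with 3 replicates per group and 2 in SG2. In the washout set of 16 samples, cells with 31 hr of dox had IAA or none for 2.5 hr, then 4.5 hr without it, before the same sorts, with 2 replicates per group. The time course comprised 16 samples of unsorted cells with 34 hr of dox that received no IAA or IAA for 30 min or 1, 2, 3, 4, 6 or 10 hr, with 2 replicates per time. The merged list gives positions only, so no value below belongs to a sample, a phase or a treatment, and no test between groups was possible.

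Socs2 encodes an SH2-domain protein of the suppressor of cytokine signalling family. It recruits a ubiquitin ligase to activated receptors and limits signalling through JAK kinases and STAT transcription factors, the pathway by which LIF acts on mouse embryonic stem cells. Ubash3b encodes a phosphatase that dampens signalling from tyrosine kinases and is best known from T cells and platelets. Cntln encodes centlein, which takes part in the linker that holds the paired centrioles of the centrosome together. Embryonic stem cell enhancers bound by OCT4 together with SOX2 often carry a composite DNA motif in which a SOX site stands directly beside an OCT site.

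The sequences below show the central 300 bases of both displayed elements, from the plus strand of GRCm38.p6, followed by the promoters of Cntln and Ubash3b as RefSeq places them on the same build, 250 bases before to 50 bases after a start and read in the direction of the gene. Lower case holds the sequence and capitals mark CpG dinucleotides. In the element near Socs2 capitals also mark the 15 bases nearest to the OCT4::SOX2 composite consensus. Promoters were matched for 2 of the 3 genes.
Socs2 displayed element, chr10:95456173-95456472: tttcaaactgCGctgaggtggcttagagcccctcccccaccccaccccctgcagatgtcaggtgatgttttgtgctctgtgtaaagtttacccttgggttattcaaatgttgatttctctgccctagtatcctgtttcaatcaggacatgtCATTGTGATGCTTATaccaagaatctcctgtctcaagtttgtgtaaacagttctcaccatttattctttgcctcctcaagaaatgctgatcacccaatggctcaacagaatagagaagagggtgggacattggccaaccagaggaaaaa
Ubash3b displayed element, chr9:41248057-41248356: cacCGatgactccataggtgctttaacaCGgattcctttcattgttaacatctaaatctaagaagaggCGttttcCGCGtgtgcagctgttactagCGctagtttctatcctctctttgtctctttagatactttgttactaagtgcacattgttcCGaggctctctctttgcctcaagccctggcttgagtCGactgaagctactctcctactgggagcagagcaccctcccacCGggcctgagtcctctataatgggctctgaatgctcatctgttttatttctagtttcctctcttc
Cntln promoter, chr4:84884059-84884358, plus strand: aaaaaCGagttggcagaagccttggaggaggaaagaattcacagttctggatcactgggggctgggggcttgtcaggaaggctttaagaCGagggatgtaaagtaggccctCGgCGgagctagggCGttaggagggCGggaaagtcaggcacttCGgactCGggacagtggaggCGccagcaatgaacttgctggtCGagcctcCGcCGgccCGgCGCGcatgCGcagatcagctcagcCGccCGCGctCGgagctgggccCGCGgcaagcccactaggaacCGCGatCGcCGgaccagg
Ubash3b promoter, chr9:41158013-41158312, minus strand: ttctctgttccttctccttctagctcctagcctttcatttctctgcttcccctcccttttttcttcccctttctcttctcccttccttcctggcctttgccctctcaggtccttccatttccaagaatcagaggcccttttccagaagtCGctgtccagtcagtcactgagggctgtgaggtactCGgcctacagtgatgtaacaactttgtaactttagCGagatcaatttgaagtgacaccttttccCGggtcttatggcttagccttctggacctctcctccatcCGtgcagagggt
Ubash3b promoter of the internal start, chr9:41079457-41079756, minus strand: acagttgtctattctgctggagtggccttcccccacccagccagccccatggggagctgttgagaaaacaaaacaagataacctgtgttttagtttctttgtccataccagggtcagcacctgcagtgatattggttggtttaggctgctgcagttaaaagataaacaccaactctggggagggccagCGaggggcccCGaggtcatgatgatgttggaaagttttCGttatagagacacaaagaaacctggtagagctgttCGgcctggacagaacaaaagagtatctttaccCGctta

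The study displayed the element near Socs2 as a locus of a group that lost accessibility when OCT4 was degraded. That near Ubash3b it displayed as a locus gaining accessibility, in another experiment with OCT4 degraded between mitosis and G1. The displayed elements differed in CpG content: the window near Socs2 held 1 CpG and the window near Ubash3b held 9. The promoters differed as well. That of Cntln held 26 CpGs, more than 83.1% of 32851 RefSeq promoters of the same length, and lay wholly inside a peak. Both Ubash3b promoters held 5 CpGs, with a median of 7 over all promoters. At the first of them 192 of the 300 bases were inside a peak, and at the internal start none were.

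Of the 43 peaks, 3 were centred within 1 kb of a TSS of the 3 genes themselves, 8 within 1 kb of a TSS of another gene, and 32 were distal, that is more than 1 kb from any annotated TSS. The distal peaks made up 74.4% of the members and 78.9% of the whole list. They comprised 14 intronic, 3 exonic and 15 intergenic peaks, and 5 of them lay inside Socs2, Ubash3b or Cntln. The distal members were 202 to 994 bp wide with a median of 424 bp, beside 380 bp for all 89795 distal peaks (quartiles 251 and 642 bp). Socs2, Ubash3b and Cntln each had a TSS peak of their own. Of the 21938 protein-coding genes 70.8% had one.

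**Figure D1:**
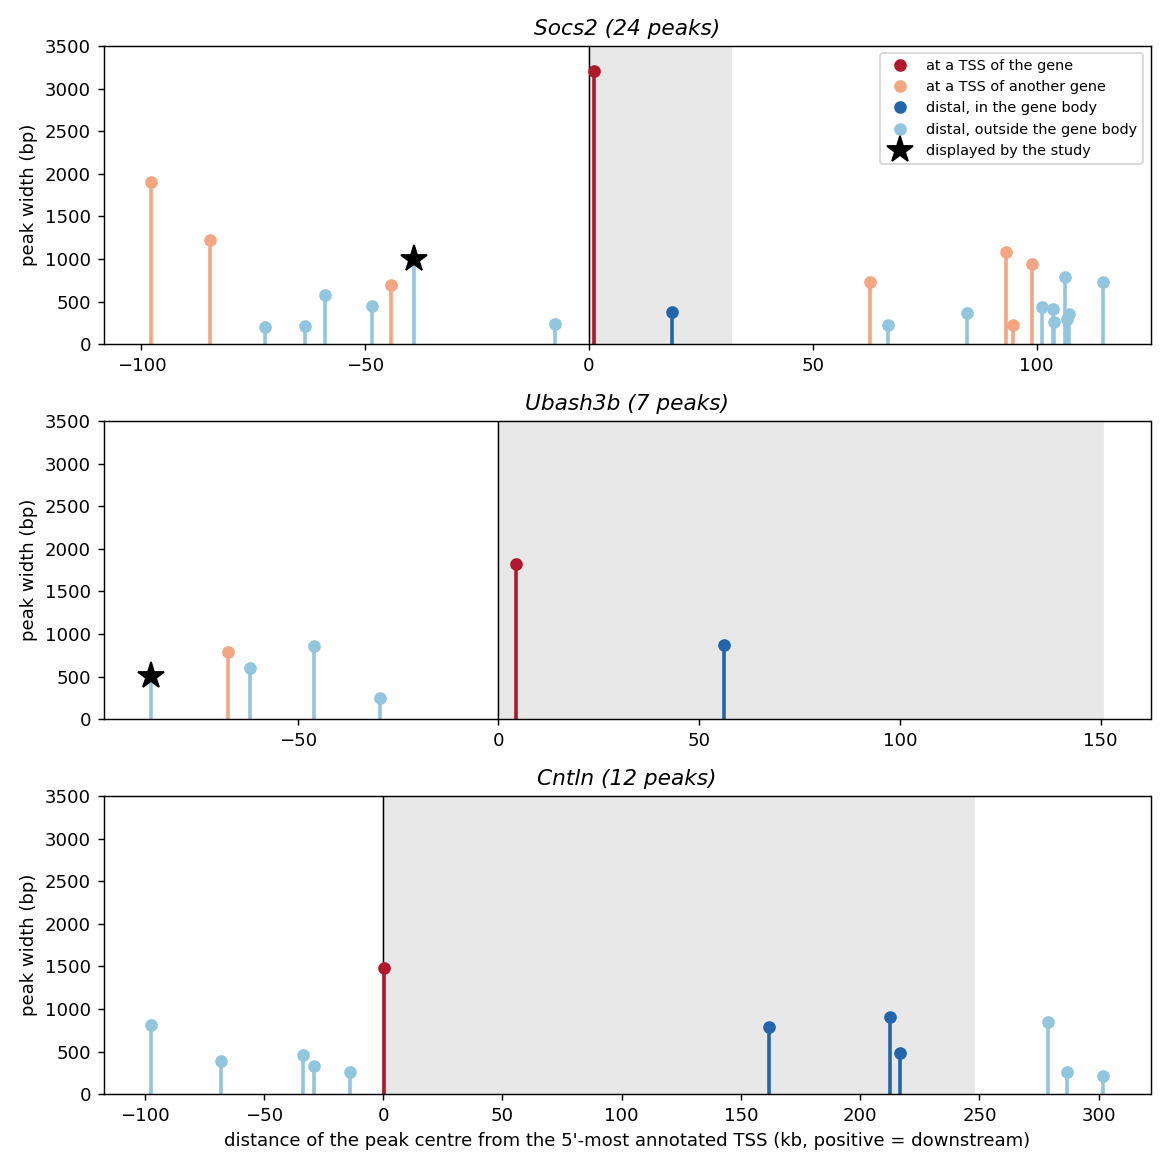
Width of each member peak (bp) against the distance of its centre from the most upstream annotated TSS of its gene (kb, positive in the direction of transcription). Grey bands are gene bodies, colours give the class of the peak and stars mark the displayed elements. Socs2 has peaks on both sides, while Ubash3b and Cntln have long stretches of gene body without any.

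Socs2 lies on the minus strand of chromosome 10 (95385362 to 95417180, 31.8 kb) and has 14 annotated transcripts, 7 of them protein-coding. Its promoter peak, chr10:95414516-95417723, was 3208 bp wide and covered 10 of the 14 transcript starts, all 7 protein-coding ones included. Only 19 of 23942 TSS peaks in the list, 0.0794%, were at least as wide. The median TSS peak measured 970 bp. GC content of the Socs2 promoter peak was 65.2%, and the CpG observed over expected ratio was 0.69. The other 4 starts, of transcripts without a protein-coding label, lay 3.01 to 5.65 kb from the nearest peak centre.

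The gene body of Socs2 held a single further peak, chr10:95398432-95398805, an intronic peak of 374 bp. It was also the nearest distal peak to Socs2, at 5.65 kb from the start of a retained-intron transcript and 18.6 kb downstream of the most upstream TSS. On the other side the nearest distal peak, chr10:95424610-95424845, lay 7.55 kb upstream and was 236 bp wide, within an intron of 5730420D15Rik, a non-coding gene. Between this narrow peak and the displayed element the list held none for 31.0 kb.

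The element that the study displayed on chromosome 10, chr10:95455826-95456819, was the widest distal member of all 3 genes at 994 bp. It was as wide as or wider than 92.6% of all distal peaks. Its centre lay 39.1 kb upstream of Socs2, the protein-coding gene with the nearest TSS, in an intron of the long non-coding RNA gene Gm47599 and 1356 bp from the TSS of the processed pseudogene Gm47600. The peak at the start of Gm47599 itself, chr10:95461002-95461697 and 696 bp wide, followed after a gap of 4.18 kb. A distance of 39.1 kb was not extreme for the list: 57.5% of distal peaks lay closer to a protein-coding TSS, with a median of 27.8 kb. Within 50 kb of the element there were 8 further peaks.

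The remaining Socs2 members stood near other genes. Downstream of Socs2, 10 peaks between chr10:95301996 and chr10:95324465 lay in or at Cradd, an adaptor gene of cell death signalling, and 2 of them were centred within 1 kb of its TSSs. Several of these were separated by short gaps, the shortest being 11 bp. Upstream, Mrpl42, which encodes a mitochondrial ribosomal protein, and Ube2n, a ubiquitin-conjugating enzyme, had TSS peaks of 1218 and 1902 bp at 84.7 and 97.8 kb from Socs2. In all, 11 genes had a TSS in the Socs2 region, of which 4 were protein-coding (Socs2, Cradd, Mrpl42 and Ube2n), and 7 of the 11 had a peak within 1 kb of a TSS. Of the 16 distal peaks, 11 lay more than 50 kb from a Socs2 TSS. With the starts of protein-coding transcripts only, 18 of the 24 peaks were members. The next peaks beyond the 100 kb limit were centred 10.9 and 27.7 kb outside it.

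Ubash3b lies on the minus strand of chromosome 9 (41011098 to 41161697, 150.6 kb). Its TSS peak, chr9:41156386-41158204, was 1819 bp wide, and 5.99% of TSS peaks were at least that wide. It covered the starts of 2 of the 6 transcripts, Ubash3b-201 and Ubash3b-205, both protein-coding. The 3 most upstream starts were 4.22 to 4.40 kb from its centre and the internal start of Ubash3b-206 was 25.97 kb from the nearest peak, so 4 of the 6 starts had no peak over them. The peak was 62.1% GC although the RefSeq promoter that overlaps its upstream edge was 50.0% GC.

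Apart from the TSS peak the gene body held 1 peak, the intronic chr9:41105047-41105913, which was the widest distal peak at Ubash3b (867 bp) and also the nearest to one of its starts. No peak lay between it and the TSS peak for 50.5 kb, nor on its other side for 140.5 kb, a gap longer than 98.0% of the 113716 gaps between neighbouring peaks, whose median was 9.12 kb. The other 5 members were upstream of the gene. At 29.6 kb was a peak of 246 bp, at 46.0 kb a peak of 856 bp in an intron of the lincRNA gene 1700063D05Rik, at 61.9 kb a peak of 602 bp, and at 67.3 kb a peak of 792 bp over the start of Gm48710. Of 7 genes with a TSS in the region, 2 had a peak there. Crtam, the only other protein-coding gene and one known from activated T cells and natural killer cells, had none within 20 kb of its TSSs, the nearest being centred at 20375 bp.

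The element displayed on chromosome 9, chr9:41247953-41248461, was the farthest member from Ubash3b. The printed end of this element is incomplete in the study's text, so the peak of the list that begins at its printed start was taken as the element, and its width rests on that. It was intergenic, 509 bp wide, and its centre lay 86.5 kb upstream of the most upstream start. Of all distal peaks, 64.0% were no wider and 72.7% were closer to a protein-coding TSS. Between it and the TSS peak lay 4 other peaks, against 1 between the chromosome 10 element and the Socs2 promoter. On the side away from the gene no peak followed for 127.6 kb, a gap longer than 97.7% of all gaps, and no other peak was centred within 10 kb. It was thus the last peak before a stretch without any, whereas the chromosome 10 element had 2 other peaks within 10 kb. The list's peaks at displayed elements of other loci, on chromosomes 3 and 11, were 780 and 1231 bp wide, the latter reaching beyond the displayed interval, and lay 84.2 and 57.6 kb from the nearest protein-coding TSS.

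Cntln lies on the plus strand of chromosome 4 (84884309 to 85131921, 247.6 kb) and has 4 protein-coding transcripts. The TSS peak, chr4:84883788-84885270, was 1483 bp wide and covered 3 of the 4 starts, while 15.6% of TSS peaks were at least that wide. GC content was 61.5% and the CpG ratio 0.87, higher than at 92.8% of TSS peaks. The first 160.2 kb of the gene after this peak held no peak, a gap longer than 98.5% of all gaps in the list.

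Cntln was one of the genes whose pre-mRNA and mRNA the study measured by RT-qPCR, and the primers place those measurements on the map of peaks.
Cntln pre-mRNA F, chr4:84884688-84884705: ctgtcgctcctgtcgcca
Cntln pre-mRNA R, chr4:84884826-84884843: cggcggccagtcctgata
Cntln mRNA F, chr4:85050115-85050134: gggaggatgtgagtgaaggc
Cntln mRNA R, chr4:85063282-85063301: acagctgccttctgtttggt
Each primer is written from its own 5′ end, so that the reverse primers read on the minus strand. The pre-mRNA pair spans 156 bp from the first exon into the first intron, where the site of the reverse primer begins 2 bp past the exon end at 84884824. Both of its sites lay inside the TSS peak. The mRNA pair lies in exons and spans 13.2 kb of the genome, and neither of its sites was in a peak.

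Inside Cntln, 3 distal peaks lay in the far part of the gene. The intronic peak chr4:85045502-85046290 (789 bp) was 161.6 kb downstream of the first TSS. The peak chr4:85096324-85097231, at an exon, was the widest distal peak at Cntln (908 bp) and the nearest to a start of the gene, 1327 bp before the internal start of Cntln-203, which no peak covered. The peak chr4:85100667-85101151 (485 bp) lay 2805 bp after that start. These 2 peaks were 3.44 kb apart and stood 50.0 and 61.3 kb from their next neighbours. Upstream of the gene 5 peaks of 260 to 807 bp lay at 13.9 to 97.2 kb, and beyond its end 3 peaks of 218 to 848 bp were nearer to a TSS of Sh3gl2, which encodes an endophilin of synaptic vesicle recycling, than to one of Cntln. Cntln was the only protein-coding gene with a TSS in the region, beside 3 processed pseudogenes without a peak.

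Peak density was higher at Socs2 than at the other two genes, whose values were close. Socs2 had 107.0 peaks per Mb over its 224.2 kb region, Cntln 29.0 over 413.8 kb and Ubash3b 24.8 over 282.2 kb. The median over protein-coding genes was 62.9 peaks per Mb (quartiles 35.0 and 95.0). A density at or above that of Socs2 was found at 17.7% of the protein-coding genes, at or above that of Cntln at 80.7%, and at or above that of Ubash3b at 83.8%. With distal peaks alone the densities were 71.4, 26.6 and 17.7 per Mb, beside a median of 39.8. Among the 15535 genes with a peak at a TSS of their own, Socs2 was denser than 78.0%, Cntln than 9.41% and Ubash3b than 6.90%. Compared with genes whose regions were within 10% of the same length, Socs2 with 24 peaks exceeded the median of 15, Ubash3b with 7 was below the median of 16, and Cntln with 12 was below the median of 18. The high value of Socs2 rested on peaks far from it, since with a reach of 50 kb the density was 64.4 per Mb and the gene ranked above 50.0% of genes.

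**Figure D2:**
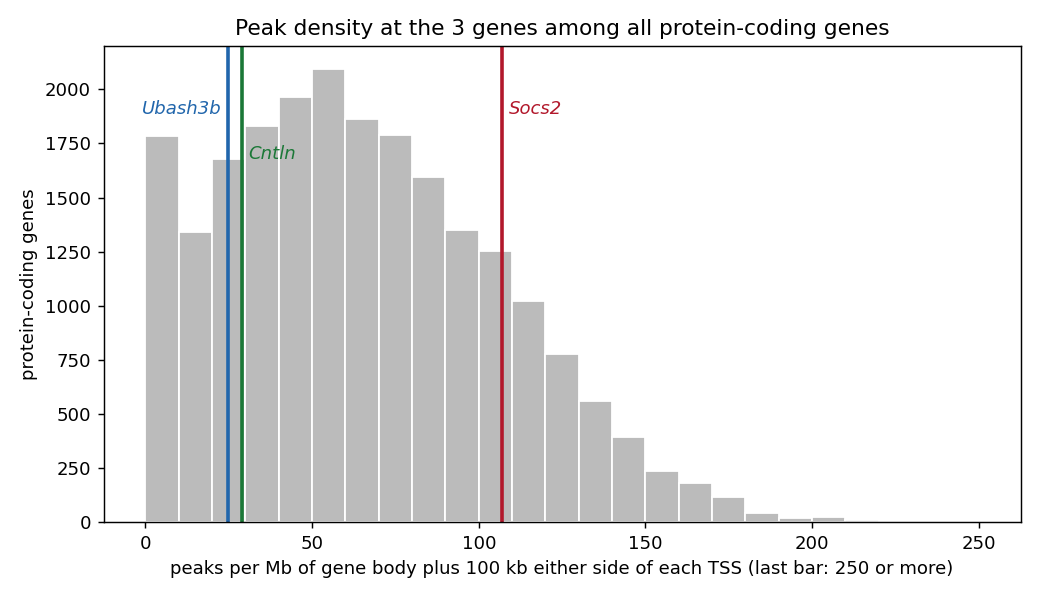
Histogram of peaks per Mb (x axis) over the 21938 protein-coding genes (y axis, number of genes), with vertical lines for the 3 genes. Ubash3b (24.8) and Cntln (29.0) lie in the lower part and Socs2 (107.0) in the upper part of the distribution.

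The 3 promoter peaks were rich in GC (61.5 to 65.2%), beside a median of 57.0% over all TSS peaks. Distal members ranged from 32.5 to 54.9% GC with a median of 46.7%, beside 47.7% over all distal peaks. The lowest value belonged to the widest distal peak of Cntln, chr4:85096324-85097231, and only 0.979% of distal peaks were lower. CpG ratios of distal members ran from 0.08 to 0.67, with medians of 0.26 at Socs2, 0.17 at Cntln and 0.47 at Ubash3b, beside 0.21 over all distal peaks. At Ubash3b 3 of the 5 distal peaks, the displayed element among them, had ratios of 0.47 to 0.58. The displayed elements differed in composition over their whole width too: that near Socs2 was 41.0% GC with a CpG ratio of 0.26, and that near Ubash3b was 48.7% GC with a ratio of 0.47, which 9.17% of distal peaks reached. Soft-masked repeats covered 36.1% of the former and 10.2% of the latter, and 5 of the 32 distal members were mostly repeat, while 15.5% of all distal peaks were.

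**Figure D3:**
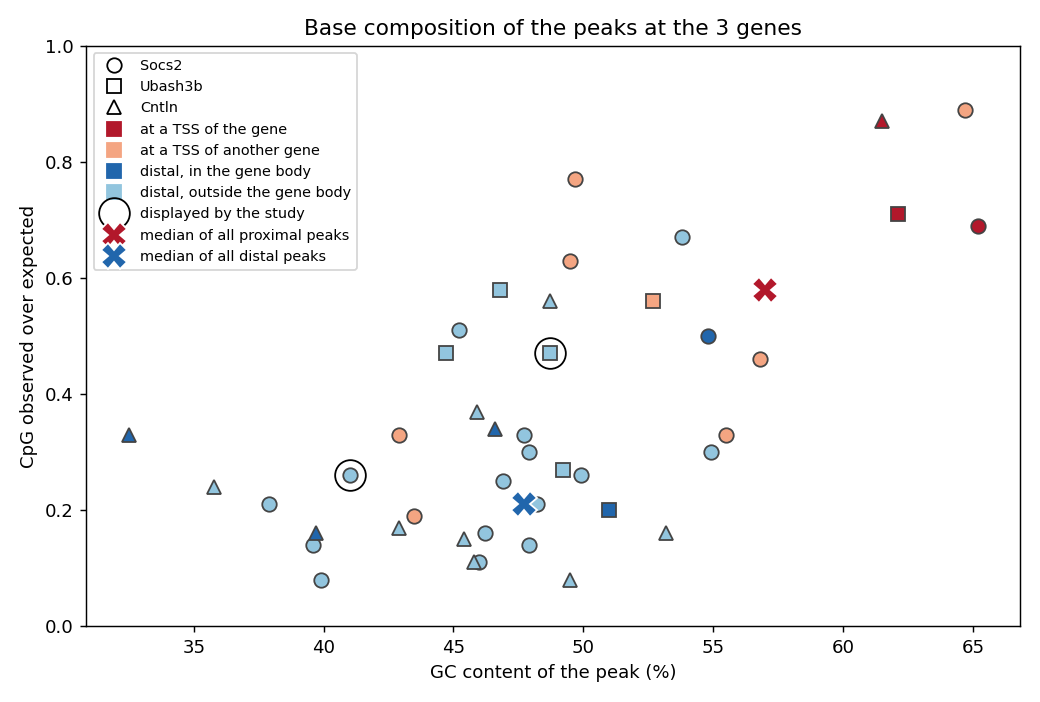
CpG observed over expected (y axis) against GC content in percent (x axis) for each of the 43 peaks. Symbols give the gene, colours the class of the peak, rings the displayed elements and crosses the medians of all TSS and all distal peaks. The 3 promoter peaks lie at the upper right, and the displayed elements have ratios of 0.26 near Socs2 and 0.47 near Ubash3b.

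Consensus motifs of 8 kinds were matched on both strands of each peak. A match describes letters and does not show binding, and wider peaks hold more matches by their length. None of the 43 peaks held the OCT4::SOX2 composite within 2 mismatches, which 0.426% of all peaks in the list did. With up to 3 mismatches 2 members held one, while 3.41% of all peaks did. The first was the displayed element near Socs2, where the match at chr10:95456324-95456338, in capitals above, lay 9 bp from the peak centre. Of peaks within 10% of its width, 5.36% came as close to the composite. The second was the peak at 46.0 kb from Ubash3b, chr9:41207279-41208134, with the match 328 bp from the centre. The displayed element near Ubash3b came no closer than 6 mismatches, and 97.0% of all peaks came at least that close.

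The OCT octamer ATGCAAAT (3.07% of all peaks), the ESRRB site TCAAGGTCA (2.91%) and the AP-2 site GCCTGAGGC (2.51%) were absent from all 43 peaks. At the shares found in peaks of like width, 1.4, 1.4 and 1.2 of the 43 members would hold them, so counts of 0 are close to the background. The SOX letters CCATTGT or CCTTTGT were found in 14 members (21.8% of all peaks, and 10.4 members at the share of like widths), of which 6 were at Cntln, 6 at Socs2 and 2 at Ubash3b. At Cntln all 3 distal peaks of the gene body held them, in chr4:85100667-85101151 at 1 bp from the centre. In order of position, 31.4, 34.8 and 22.7% of peaks of like width held the SOX letters. The KLF letters GGGTGTGG or GGGCGTGG were found in 9 members (13.0% of all peaks, and 6.4 at like widths). These included the promoter peaks of Socs2 and Cntln and the displayed element near Socs2, where the match lay 340 bp from the centre and outside the printed window. In the same order, 50.9, 33.2 and 23.5% of peaks of like width held the KLF letters.

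The CTCF consensus, the site of the insulator protein CTCF, matched with up to 1 mismatch in 6 members, beside 16.6% of all peaks and 8.0 members at like widths. Without a mismatch it was found in 2, the peak at 46.0 kb from Ubash3b and the exonic peak of Cntln, chr4:85096324-85097231. The former held 2 CTCF matches, a SOX match and the composite with 3 mismatches. No motif of the 8, at the set mismatches, lay in the displayed element near Ubash3b.

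The STAT palindrome TTCCNGGAA was found in 1 member, the Socs2 promoter peak, beside 2.31% of all peaks and 10.5% of the 57 peaks of like width. That peak held 2 copies, at chr10:95416904-95416912 and chr10:95416915-95416923, whose starts were 11 bp apart. They lay downstream of the most upstream start and upstream of the other starts of the protein-coding transcripts. A pair of copies starting within 20 bp of each other occurred in 5 peaks of the list, or 0.00440%. The spacing was singled out after the matches had been seen. The other 4 peaks were nearest to Rbms1, Ptafr, Grm8 and Ikzf4, and that at Ikzf4 was also a TSS peak.

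Other genes of the same families were counted by the same rule. All 8 SOCS family genes (Cish and Socs1 to Socs7) had a peak at a TSS, with 15 to 31 peaks and 75.0 to 154.0 peaks per Mb. Socs2, at 107.0, came after Socs3 (154.0), the feedback inhibitor of LIF signalling, and Socs7 (126.0), and Socs1 was lowest. With distal peaks alone Socs4 was lowest, at 30.0 per Mb, and Socs2 had 71.4. Taking the widest TSS peak of each gene, that of Socs2 was the widest of the family, ahead of Socs1 (2239 bp) and Socs3 (2179 bp), and that of Cish was the narrowest at 1096 bp. STAT palindromes were found in the TSS peaks of Cish (2), Socs2 (2) and Socs3 (1) and not in those of the other 5 genes. Over all TSS peaks of the list 3.09% held one, as did 10.5% of peaks about as wide as that of Socs2, and the count over the family was not tested. Ubash3a, the lymphoid relative of Ubash3b, had 18 peaks, or 79.1 per Mb, and a TSS peak of 663 bp, narrower than the 1819 bp of Ubash3b.

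The 6 genes of the centriole linker list all had TSS peaks, and Cntln had the lowest density of all peaks in the list, whereas with distal peaks alone Cep250 (13.1 per Mb) was below Cntln (26.6). Cep250, which encodes the protein that anchors the linker at the centriole ends, had 39.2 peaks per Mb in all, and Lrrc45 was highest with 126.0. The remaining members, Crocc (rootletin), Cep68 and the kinase Nek2, had 108.0, 85.0 and 77.8. By the widest TSS peak of each gene Cntln led the list at 1483 bp, and that of Cep250 was the narrowest at 1125 bp. All 22 genes of the RT-qPCR list had a TSS peak. The study had grouped them by accessibility changes of nearby loci in another experiment with a mitosis-degraded OCT4 and had also chosen them by their expression after longer OCT4 loss, with Cntln among the control genes of cluster 4. The groups are thus not independent of the response to OCT4. Although Cntln served as a control, the study reported a significant rise of its mRNA when OCT4 was rapidly degraded with IAA. Pre-mRNA of the cluster 4 genes was described there as generally unaffected. Within cluster 4 Cntln had the lowest density of all peaks among 7 genes, from 29.0 to 115.0 at Nes. Over the whole list only Trps1 was lower, at 23.8. Lefty2, at 144.0, was highest.

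**Figure D4:**
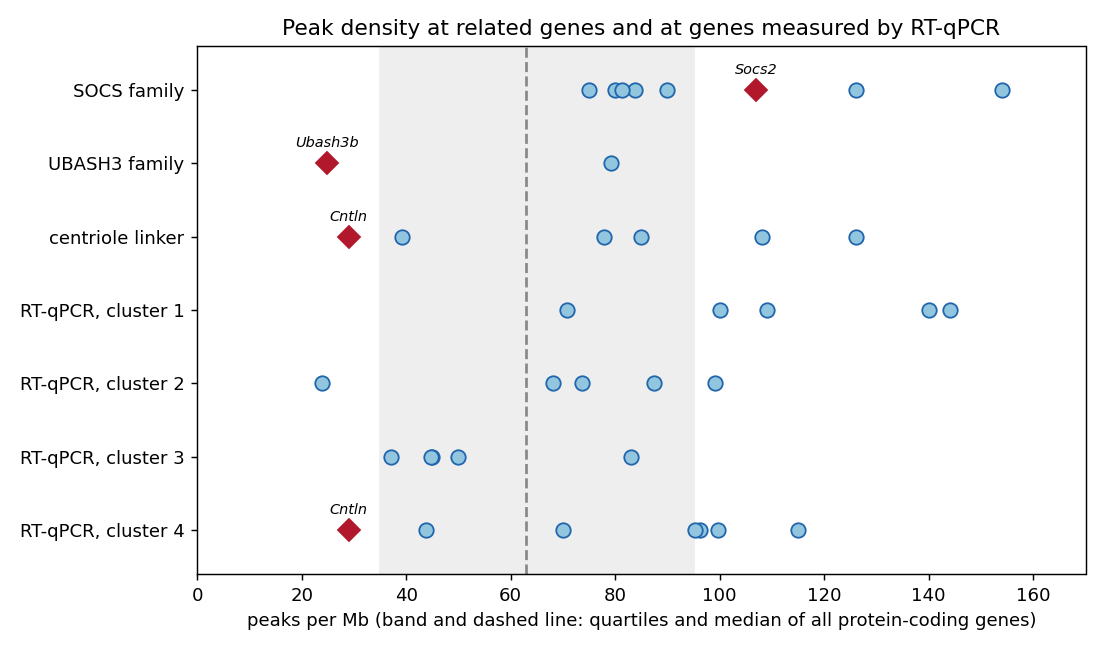
Peaks per Mb (x axis) of the genes in the SOCS, UBASH3 and centriole linker lists and of the genes measured by RT-qPCR, by the study's cluster (y axis). Diamonds are Socs2, Ubash3b and Cntln, circles the other genes, and the band and dashed line the quartiles (35.0 and 95.0) and median (62.9) of all protein-coding genes. Ubash3b and Cntln lie below the band, and Socs2 lies above it.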

How the data were processed

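The authors aligned ATAC-seq reads to GRCm38 with STAR 2.6.1c, removed duplicates with Picard, called peaks with MACS2 2.1.1.20160309 and merged them with BEDTools. The deposited list holds chromosome, start and end only, as positions with no header and no count or signal, so the depth behind each peak is unknown. Whether peaks were called per sample was not given in the sources used here. The methods describe removal of peaks above 5 kb, of peaks overlapping those called in input samples, and of blacklisted peaks. Yet 11 peaks above 5 kb remain in the list, none of them at the 3 genes. Whether the other removals were applied to this list was not checked.

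Starts were converted to 1-based positions. Peak classes were set at the centre, as TSS (within 1 kb of a start of any transcript), exon, intron or intergenic. Regions were gene bodies plus 100 kb either side of each TSS. Percentiles for density, GC and CpG are shares of the list strictly below a value, and those for width include equal widths. Motif code was tested on simulated data. Python 3.11.15, numpy 2.4.6, pandas 2.3.3, pysam 0.24.0 and matplotlib 3.10.9 were used. Named genes were the 3 members, their TSS, displayed, widest and nearest distal peaks, the family, partner and RT-qPCR lists, the genes whose TSS is nearest to a displayed element, and protein-coding genes with a TSS in the regions. Sh3gl2, Rbms1, Ptafr, Grm8, Ikzf4 and the non-coding genes Gm47599, 5730420D15Rik and 1700063D05Rik fall outside this rule and were named after their values had been seen, as genes nearest to or around peaks described. Members and lists were chosen with earlier results of these data known. All statements are descriptions without tests.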

Additional observations from a re-analysis of the deposited data

How the results depend on the processing

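Alternatives were computed for 13 values, and 29 of 41 stayed within 1.5 times the value given or, for width percentiles, within its counting interval. Some of the 29 could not have moved. The members were 202 to 3208 bp wide, so leaving out peaks under 200 bp or above 5 kb removed none of them. A composite count of 0 could not fall with 1 fewer mismatch. With a reach of 50 kb the peaks at Socs2, Ubash3b and Cntln numbered 8, 4 and 7, and the density of Socs2 was 64.4 per Mb. With distal peaks defined as beyond 2500 bp from a TSS, Socs2 had 10 and Ubash3b 3, and the displayed element near Socs2, at 1356 bp from the TSS of Gm47600, was no longer counted as distal. The displayed element near Socs2 reached a width percentile of 93.9 among intronic and intergenic distal peaks of its chromosome and 84.0 among all peaks, and that near Ubash3b reached 55.8 among all peaks. With 1 more mismatch, 2 members held the OCT4::SOX2 composite and 23 the CTCF consensus (49.5% of all peaks). With 1 fewer, 2 members held the CTCF consensus (4.19%). The alternatives that moved used a narrower or wider definition or, for width percentiles, another comparison set. No paired analysis was possible because the list holds no value per sample.

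How the merged list and the widths of its peaks depend on depth and on the number of libraries was not tested. Presence in the list does not say in which phase or treatment a region was open.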
